A study of Mus musculus with 6 samples.

Results

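The genes described here are 38 components of transforming growth factor-β (TGF-β) and bone morphogenetic protein (BMP) signalling, chosen by gene symbol from the 55487 genes of the deposited count table. They comprise 6 ligands, 5 genes of ligand latency and activation, 12 receptors and coreceptors, 8 SMAD genes, 6 ubiquitin ligases and nuclear corepressors, and the target gene Id1. Transcript levels came from RNA sequencing of live lymphocytes sorted from the epithelial area of the small intestine of wild-type (WT) C57BL/6J mice, in 2 groups. The first was B220+CD3ε+CD45+ cells, named X cells in the sample titles, and the second was B220−CD3ε+CD45+ cells, named T cells. Each group had 3 libraries, and neither group is labelled with a treatment, an age or a sex. CD3ε belongs to the T cell receptor complex, CD45 is the pan-leukocyte phosphatase, and B220 is a CD45 isoform used as a B cell marker. The labels give neither the number of mice behind a library nor whether replicates were different mice. The p-values therefore reflect only how these libraries vary, which may be technical.

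Ligands of the TGF-β family are secreted as dimers and bind a pair of type II and a pair of type I receptor kinases. TGF-β and activin receptors phosphorylate SMAD2 and SMAD3, and BMP receptors phosphorylate SMAD1, SMAD5 and SMAD9, after which these proteins join SMAD4 and act on transcription in the nucleus. TGF-β itself is kept latent outside the cell and is freed by αV integrins. In the gut epithelium TGF-β is known for inducing the αE integrin (Itgae) by which intraepithelial lymphocytes bind E-cadherin, and for the development of CD8αα intraepithelial T cells.

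The deposited counts summed to between 11320363 and 39591312 per library, with the deepest library being B220+ replicate 2. All 9 markers of the labelled cell type were present, and their summed level lay between 12030 and 12830 CPM (counts scaled to a common library size) in B220+ libraries and between 11410 and 11720 CPM in B220− libraries. Of these 9, Trdc (1.27-fold, adjusted p = 0.00977 by edgeR) and Cd8a (1.29-fold, 0.00779) were called higher in B220+ cells, and Cd247 lower (1.43-fold, 0.00107). The first 2 calls were lost without B220− replicate 3 (0.0524 and 0.0537). Over all genes tested, 11.1% were called. The sums for markers of other cell types were below these sums. The summed level of 10 endothelial genes was 30.6 to 36.5 CPM in B220+ and 28.8 to 30.1 CPM in B220− libraries, most of it Pecam1, which T cells also express, and Kdr, Tek, Tie1 and Emcn had no count in any library. For 11 genes of fibroblasts and smooth muscle the sums were 7.71 to 10.8 CPM in B220+ libraries, against 9.21 to 12.2 CPM in B220− libraries, with Lum at 0. For 15 genes of intestinal epithelium they were 344 to 438 CPM in B220+ libraries, against 318 to 391 CPM in B220− libraries. Most of this sum was Cdh1, and 0 genes were called in either direction. Epcam ranges were nevertheless separate (75.35 ± 6.204 CPM in B220+, against 35.94 ± 14.73 CPM in B220− libraries, adjusted p = 0.1697 by edgeR and 0.04047 by DESeq2). Defa24 had 29.07 CPM in B220+ replicate 3 and 28.5 CPM in B220− replicate 3, against 1.103 to 3.576 CPM in the other libraries. Lyz1 had 28.37 and 26.84 CPM in the same libraries, against 2.63 to 4.703 CPM in the others. The 9 B cell genes summed to 31.9 to 35.4 CPM in B220+ and 25.8 to 34.4 CPM in B220− libraries, most of it Cd79b. The 10 genes of macrophages and monocytes summed to 16.5 to 17.7 CPM in B220+ and 20.3 to 23.3 CPM in B220− libraries. Sums of plasma cell (140 to 176 CPM in B220+, 133 to 240 CPM in B220−), glial and neuronal (1.87 to 3.40 and 2.44 to 3.93 CPM) and erythroid and platelet genes (4.76 to 9.27 and 5.21 to 8.22 CPM) overlapped between the groups, with most of the plasma cell sum being Xbp1.

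Of the tested genes in these lists of other cell types, 0 were called higher. Besides Mcpt1, those called lower were the B cell gene Blk, the plasma cell gene Sdc1, the macrophage gene Lyz2 and the pericyte gene Pdgfrb. The lists of Mcpt1, Blk, Lyz2 and Pdgfrb each had 3 tested genes, and that of Sdc1 had 4. In the other lists 0 were called, of 14 epithelial, 4 erythroid and platelet, 3 dendritic, 1 endothelial and 1 glial and neuronal genes tested. Over all genes tested, 5.58% were called higher and 5.56% lower. Blk had 0.0875 ± 0.111 CPM in B220+, against 0.982 ± 0.202 CPM in B220− libraries (adjusted p = 0.00421 by edgeR), a call lost without B220+ replicate 2 (adjusted p = 0.0585). Sdc1 had 0.846 ± 0.390 CPM in B220+, against 3.77 ± 2.37 CPM in B220− libraries (adjusted p = 0.0203 by edgeR), a call lost without B220+ replicate 1 (adjusted p = 0.0805), B220+ replicate 2 (0.127) or B220− replicate 3 (0.0640). Lyz2 had 0.303 ± 0.147 CPM in B220+, against 2.06 ± 0.573 CPM in B220− libraries (adjusted p = 0.00200 by edgeR), and Pdgfrb had 0.213 ± 0.100 CPM in B220+, against 1.65 ± 0.580 CPM in B220− libraries (adjusted p = 0.00288 by edgeR). Of 7 dendritic cell genes, 2 were at 1 CPM or more. Flt3 (0.268 ± 0.150 CPM in B220+, against 0.205 ± 0.0560 CPM in B220− libraries) was below 1 CPM and added little to the sum. So was Zbtb46 (0.70 ± 0.28 CPM in B220+, against 0.52 ± 0.28 CPM in B220− libraries). Sums of the dendritic cell genes did not overlap (373 to 521 CPM in B220+, against 232 to 308 CPM in B220− libraries). The same held for genes of neutrophils, mast cells and eosinophils (202 to 317 CPM in B220+, against 50.9 to 109 CPM in B220− libraries), most of it Kit (269 ± 62.0 CPM in B220+, against 74.2 ± 26.7 CPM in B220− libraries, adjusted p = 0.0543 by edgeR), with S100a8 and S100a9 at 0. Of the mast cell protease genes, Mcpt1 was lower (0.518 ± 0.237 CPM in B220+, against 5.602 ± 3.79 CPM in B220− libraries, adjusted p = 0.0104 by edgeR), a call lost without B220+ replicate 1 (adjusted p = 0.0593) or B220+ replicate 2 (0.0594), and Mcpt2, not tested, had 16 counts in all B220+ libraries together, against 85 in all B220− libraries. The endothelial sums were also separate, with B220+ above B220−, and the macrophage and monocyte sums with B220+ below B220−. The part of other cells in the results below was not tested, and in bulk libraries fewer cells of a type and less RNA per cell cannot be told apart.

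TGF-β and BMP genes moved in both directions between the groups. Of the 38 members, 28 passed the filter on low counts and were tested with edgeR's quasi-likelihood test, with p-values adjusted over all 14722 genes tested. Of these 28, 10 were called at an adjusted p under 0.05. In B220+ cells 6 were higher, namely the ligands Tgfb3 and Bmp7, the latent TGF-β binding protein Ltbp4, the integrin chain Itgav and the type II receptors Acvr2a and Bmpr2. The 4 that were lower were the signal transducer Smad3, the coreceptor Tgfbr3, the type I BMP receptor Bmpr1a and the corepressor Ski. Over all genes tested, 11.1% were called, 5.58% higher and 5.56% lower, against 35.7% of the tested members. The members were chosen with earlier results of these data known, so these shares are a description and not a test of the pathway. The median log2 fold change (B220+ minus B220−) was 0.011 over the tested members and −0.0074 over all genes tested, and the median of its absolute value was 0.21 and 0.15. The CPM ranges of the groups did not overlap for 12 of the 28 members, or 42.9%, against 28.1% of all genes tested.

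**Figure D1:**
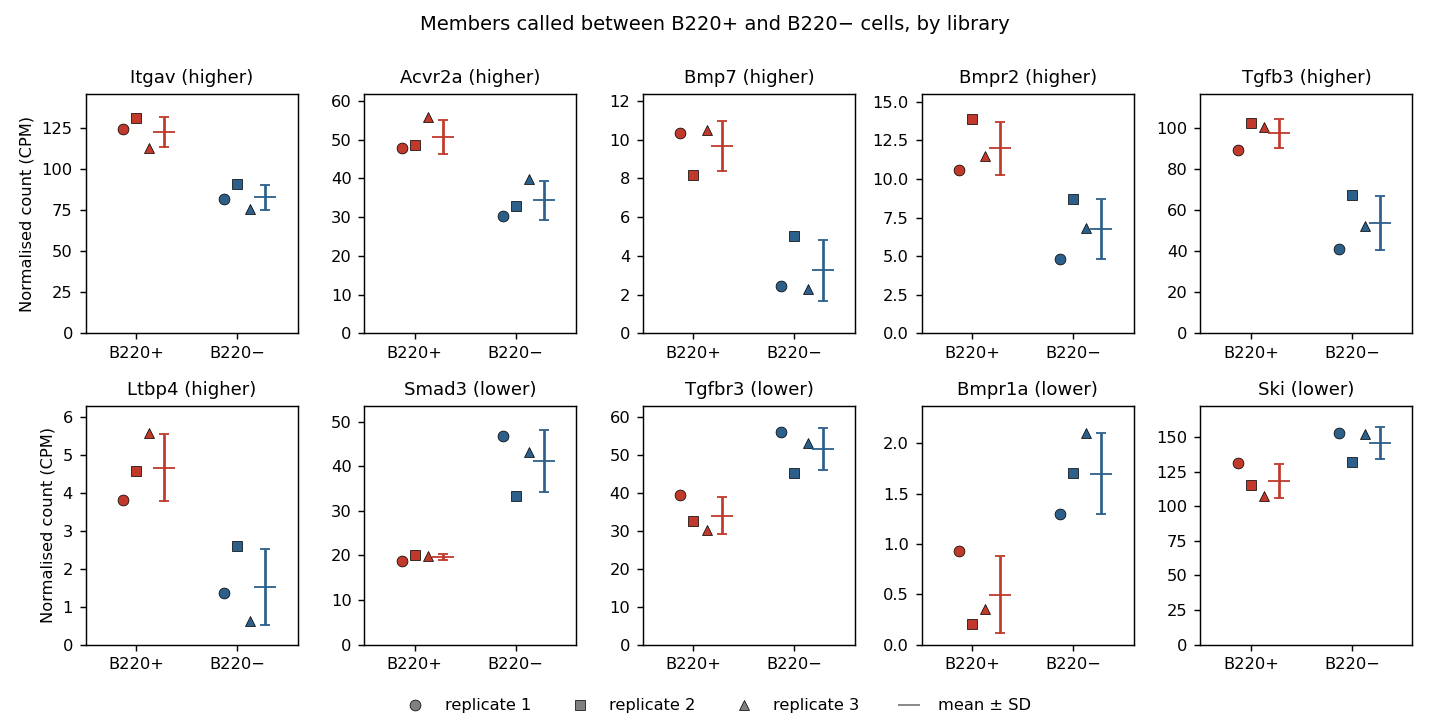
Normalised counts (CPM, linear axes from 0) of the 10 called members, with B220+ libraries on the left and B220− libraries on the right of each panel, symbols for replicates 1 to 3 and bars for the mean ± SD (n = 3). In each of the 10 panels the highest library of one group lies below the lowest of the other.

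B220− replicate 2 was the B220− library closest to the B220+ mean for 8 of the 10 called members. The same library was the closest for 66.8% of all 1639 called genes, so the members shared this with the table as a whole. When it was left out, the fit called the same members other than Bmpr1a, and 6 were higher and 3 lower.

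Promoter windows are shown for 4 called members on which the results turn, and for Smad6, which had nearly no reads. They run from 250 bases before to 50 after the start of the gene in RefSeq (GRCm38.p6, the assembly of mm10), 5′ to 3′ on the strand of the gene, and 28 of the 38 members had such a window. Capitals mark matches, on either strand, to the palindromic SMAD element GTCTAGAC, the CAGA box core CAGACA, the GC-rich SMAD element GGCGCC and the RUNX core TGTGGT, motifs that do not overlap one another in these windows.
Smad3 (chr9:63757945-63758244, minus strand): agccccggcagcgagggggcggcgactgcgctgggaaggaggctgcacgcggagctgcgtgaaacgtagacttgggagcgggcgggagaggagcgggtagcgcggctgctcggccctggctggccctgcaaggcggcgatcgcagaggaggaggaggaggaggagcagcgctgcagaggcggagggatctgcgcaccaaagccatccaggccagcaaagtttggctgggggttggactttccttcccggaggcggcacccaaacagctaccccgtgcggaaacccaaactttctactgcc
Itgav (chr2:83724147-83724446, plus strand): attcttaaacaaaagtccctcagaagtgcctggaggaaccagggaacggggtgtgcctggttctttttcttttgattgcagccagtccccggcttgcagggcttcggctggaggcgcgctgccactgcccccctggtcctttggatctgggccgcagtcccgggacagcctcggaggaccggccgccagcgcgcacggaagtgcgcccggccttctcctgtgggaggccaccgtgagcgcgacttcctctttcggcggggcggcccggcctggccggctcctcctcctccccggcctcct
Acvr2a (chr2:48813859-48814158, plus strand): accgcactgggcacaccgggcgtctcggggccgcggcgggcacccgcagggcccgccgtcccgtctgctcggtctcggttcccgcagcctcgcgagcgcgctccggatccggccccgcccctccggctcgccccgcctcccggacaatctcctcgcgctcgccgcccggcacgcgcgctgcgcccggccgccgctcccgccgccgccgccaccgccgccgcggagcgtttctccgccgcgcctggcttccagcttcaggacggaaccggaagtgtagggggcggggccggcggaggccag
Bmpr2 (chr1:59764029-59764328, plus strand): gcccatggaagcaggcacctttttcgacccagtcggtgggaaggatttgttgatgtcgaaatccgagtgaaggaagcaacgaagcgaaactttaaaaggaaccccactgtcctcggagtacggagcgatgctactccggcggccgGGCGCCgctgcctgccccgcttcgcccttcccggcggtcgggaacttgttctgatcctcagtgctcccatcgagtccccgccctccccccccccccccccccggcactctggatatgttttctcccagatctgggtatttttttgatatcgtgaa
Smad6 (chr9:64022010-64022309, minus strand): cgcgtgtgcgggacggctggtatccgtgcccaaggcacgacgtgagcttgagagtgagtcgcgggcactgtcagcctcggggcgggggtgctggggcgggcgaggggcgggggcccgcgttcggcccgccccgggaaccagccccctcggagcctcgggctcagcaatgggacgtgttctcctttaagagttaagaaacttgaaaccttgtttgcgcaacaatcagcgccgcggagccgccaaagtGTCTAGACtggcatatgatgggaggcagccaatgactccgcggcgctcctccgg
The RefSeq start of Bmpr2 lies inside the deposited gene model, downstream of that model's start. The Bmpr2 window held 1 match to GGCGCC, at position −105 from the start, a motif found in 11.9% of 32851 such windows. Among called members whose windows are not shown, it lay at −198 for Bmpr1a and −220 for Ski. For Ltbp4 it lay at −184 and −169 in overlapping windows, and a further Ltbp4 window held none of the motifs. GGCGCC was not particular to called members. It also lay in windows of Tgfbr1, Acvr1b, Smad5 and Smurf2, which were not called, and of Smad9, which was not tested. The Smad6 window held GTCTAGAC at position −4, found in 0.213% of windows. The windows of Smad3, Itgav and Acvr2a had none of the 4 motifs, of which CAGACA is found in 6913 and TGTGGT in 5506 of the 32851 windows. They were rich in CpG, with 25, 24 and 54 CpG dinucleotides in 300 bases. A match is a description of the letters and was not tied to binding or to the differences in level.

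Among the ligands, Tgfb3 was higher in B220+ cells and Tgfb1 was not called. Tgfb3 (ENSMUSG00000021253, chromosome 12, 86056745 to 86079041, mm10), which encodes TGF-β3, stood at 89.2, 102 and 100.4 CPM in the B220+ libraries and 41.1, 67.4 and 51.9 CPM in the B220− libraries (log2 fold change 0.87 with SE 0.17, adjusted p = 0.0233 by edgeR). It was 1.82-fold higher, every B220+ library lay above every B220− library, and the call was lost without B220+ replicate 2 (adjusted p = 0.105), B220+ replicate 3 (0.0855) or B220− replicate 3 (0.0915). Exons of 2 genes on the opposite strand overlap 7.6% and 4.8% of its exonic bases. Of these, Gm48008 was 2.19-fold higher in B220+ cells (12.1 ± 1.37 CPM in B220+, against 5.50 ± 0.986 CPM in B220− libraries, adjusted p = 8.27e-04 by edgeR), and Gm37804 was not called (8.51 ± 2.40 CPM in B220+, against 5.61 ± 2.51 CPM in B220− libraries, adjusted p = 0.324 by edgeR). Whether reads were counted by strand is not given in the sources used here, so reads over the exonic bases that Tgfb3 shares with these genes cannot be told apart. Tgfb1, which encodes the main TGF-β of lymphocytes, had 189, 179.5 and 201 CPM in the B220+ libraries and 164, 172 and 185 CPM in the B220− libraries (log2 fold change 0.13 with SE 0.0720, adjusted p = 0.329 by edgeR). Its ranges overlapped.

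Bmp7 (ENSMUSG00000008999, chromosome 2, 172868012 to 172940321), a BMP ligand, had a low level with a clear separation, at 10.3, 8.16 and 10.5 CPM in the B220+ libraries and 2.42, 5.04 and 2.27 CPM in the B220− libraries. The log2 fold change was 1.54 (SE 0.28, adjusted p = 0.00458 by edgeR), or 2.90-fold higher in B220+ cells, on 594 counts in all B220+ libraries together, against 160 in all B220− libraries. The call held in all 6 fits that left out 1 library, with adjusted p up to 0.0259. The other BMP ligands among the members had no reads. Bmp2 and Bmp4 had no count in any library, where 3 counts would correspond to 0.0457 CPM over the B220+ and 0.0627 CPM over the B220− libraries (a limit that covers counting error only). Tgfb2 had 0, 2 and 6 counts in B220+ replicates 1, 2 and 3 and 0 counts in the B220− libraries, and it was not tested.

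Of the 5 members that hold TGF-β latent or free it, Itgav and Ltbp4 were called higher. Itgav (ENSMUSG00000027087, chromosome 2, 83724397 to 83806916) encodes αV, the integrin chain that binds latent TGF-β together with one of several β chains. It stood at 124, 131 and 113 CPM in the B220+ libraries and 82.2, 91.0 and 75.7 CPM in the B220− libraries (log2 fold change 0.57 with SE 0.0844, adjusted p = 7.87e-04 by edgeR). This 1.48-fold difference held in each of the 6 fits without 1 library, with adjusted p up to 0.00858. Its TGF-β-activating partner Itgb8 was low in both groups, at 0.933 to 2.05 CPM in B220+, against 0.593 to 1.76 CPM in B220− libraries (adjusted p = 0.531 by edgeR). The β chain gene Itgb5, from outside the members, was not called by edgeR. It had 23 counts in all B220+ libraries together, against 55 in all B220− libraries. The depth-corrected B220− over B220+ ratio was 3.28 (95% counting interval 1.98 to 5.59). This interval covers counting error only and leaves out the variation between libraries, so it does not replace the edgeR test.

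Ltbp4 (ENSMUSG00000040488, chromosome 7, 27305136 to 27337692), which tethers latent TGF-β to the matrix, was 2.95-fold higher in B220+ cells. It had 3.82, 4.58 and 5.59 CPM in the B220+ libraries and 1.35, 2.61 and 0.612 CPM in the B220− libraries (log2 fold change 1.56 with SE 0.38, adjusted p = 0.0241 by edgeR). The ranges were separate, but the call was lost without B220+ replicate 2 (adjusted p = 0.0908), B220+ replicate 3 (0.0931) or B220− replicate 1 (0.0758). Without B220− replicate 2 the log2 fold change of Ltbp4 was 2.17. The related Ltbp3 lay at 2.44 to 3.48 CPM in B220+, against 1.94 to 2.89 CPM in B220− libraries (adjusted p = 0.745 by edgeR). Ltbp1 had 1 count in all B220+ libraries together, against 2 in all B220− libraries.

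**Figure D2:**
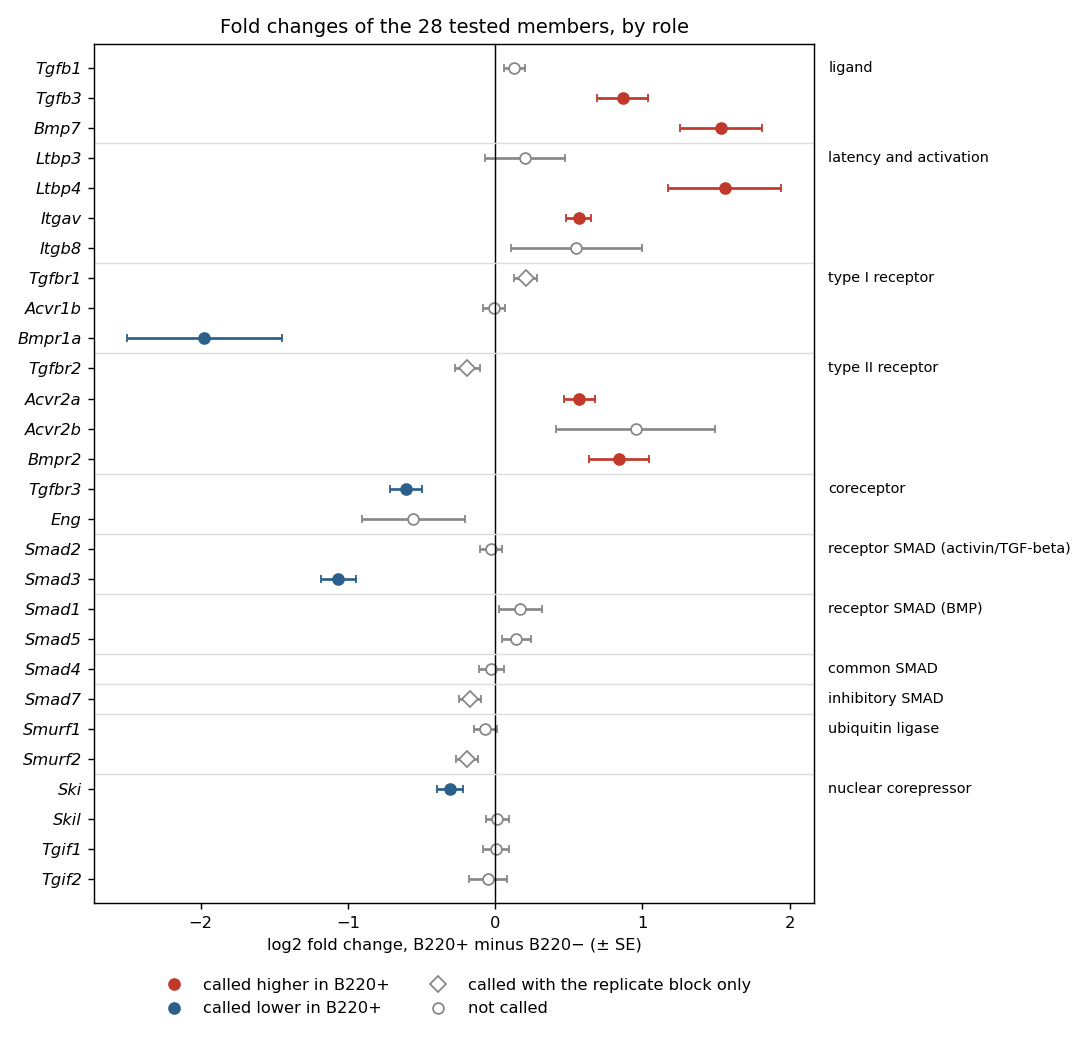
Log2 fold changes (B220+ minus B220−, horizontal axis) with their standard errors for the 28 tested members, grouped by role. The largest called changes are Ltbp4 and Bmp7 on the higher side and Bmpr1a and Smad3 on the lower side, and the open diamonds (Tgfbr1, Tgfbr2, Smad7, Smurf2) were called with the replicate block only.

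The receptors Tgfbr1 and Tgfbr2 for TGF-β itself were not called, and of the activin and BMP receptors Acvr2a, Bmpr2 and Bmpr1a were. Tgfbr2, the type II receptor that binds TGF-β, had 345, 286 and 311 CPM in the B220+ libraries and 381, 326 and 366 CPM in the B220− libraries (log2 fold change −0.19, SE 0.0838). Tgfbr1, its type I partner, had 73.5, 82.9 and 71.5 CPM in the B220+ libraries and 67.5, 67.5 and 62.6 CPM in the B220− libraries (log2 fold change 0.21, SE 0.0784). The edgeR adjusted p was 0.203 and 0.121, but 0.0267 and 0.0328 in a fit blocked by replicate number. The Tgfbr1 ranges were separate, with B220+ above B220−, while the Tgfbr2 ranges overlapped. Acvr1b, a type I receptor for activin, was nearly level, at 47.5, 49.6 and 51.4 CPM in the B220+ libraries and 48.5, 52.8 and 47.9 CPM in the B220− libraries (adjusted p = 0.968 by edgeR).

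Acvr2a (ENSMUSG00000052155, chromosome 2, 48814109 to 48903269), a type II receptor for activins that BMPs can also use, was 1.49-fold higher in B220+ cells. It had 47.9, 48.5 and 55.8 CPM in the B220+ libraries and 30.3, 32.8 and 39.9 CPM in the B220− libraries (log2 fold change 0.57 with SE 0.10, adjusted p = 0.00345 by edgeR). The ranges were separate, and the call held in all 6 fits without 1 library (adjusted p up to 0.0219). Exons of Orc4 on the opposite strand overlap 7.8% of its exonic bases, and Orc4 had 59.1 ± 1.31 CPM in B220+, against 58.1 ± 2.56 CPM in B220− libraries (adjusted p = 0.876 by edgeR). Acvr2b, the second activin type II receptor, had 0.509 to 1.01 CPM in B220+, against 0.175 to 0.680 CPM in B220− libraries (adjusted p = 0.341 by edgeR).

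The BMP receptors moved apart. Bmpr2 (ENSMUSG00000067336, chromosome 1, 59763400 to 59879014), the type II BMP receptor, had 10.6, 13.9 and 11.5 CPM in the B220+ libraries and 4.79, 8.67 and 6.82 CPM in the B220− libraries (log2 fold change 0.84 with SE 0.20, adjusted p = 0.0189 by edgeR). It was 1.79-fold higher in B220+ cells, and the call was lost without B220+ replicate 2 (adjusted p = 0.115), B220+ replicate 3 (0.0524) or B220− replicate 3 (0.0810). Bmpr1a (ENSMUSG00000021796, chromosome 14, 34410734 to 34503341), a type I BMP receptor, had 0.933, 0.202 and 0.354 CPM in the B220+ libraries and 1.29, 1.70 and 2.098 CPM in the B220− libraries. This rests on 24 counts in all B220+ libraries together, against 78 in all B220− libraries, and the 3.93-fold lower level (log2 fold change −1.98 with SE 0.53, adjusted p = 0.0285 by edgeR) was no longer called without B220+ replicate 2 (adjusted p = 0.175), B220+ replicate 3 (0.115), B220− replicate 2 (0.0561) or B220− replicate 3 (0.116). Its log2 fold change was −2.69 without B220+ replicate 1 and −1.40 without B220+ replicate 2. The other type I receptors of the BMP branch had few counts or none. Bmpr1b had no count, Acvr1 had 18 counts in all B220+ libraries together, against 7 in all B220− libraries, and Acvrl1, best known from endothelium, had 3 and 16.

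Of the coreceptors, Tgfbr3 was lower. Tgfbr3 (ENSMUSG00000029287, chromosome 5, 107106570 to 107289629), or betaglycan, presents TGF-β to its receptors and is needed for the response to inhibin. It had 39.4, 32.4 and 30.1 CPM in the B220+ libraries and 55.9, 45.2 and 53.1 CPM in the B220− libraries (log2 fold change −0.60 with SE 0.11, adjusted p = 0.00374 by edgeR). Every B220+ library was below every B220− library, and this 1.52-fold decrease held in all 6 fits without 1 library (adjusted p up to 0.0309). Eng (endoglin), a coreceptor best known from endothelium, lay at 1.10 to 2.26 CPM in B220+, against 1.62 to 3.34 CPM in B220− libraries (adjusted p = 0.405 by edgeR), and it overlaps Fpgs on the opposite strand, which had more counts.

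Smad3 had the smallest adjusted p of the 38 genes, and the other SMAD genes were not called. Smad3 (ENSMUSG00000032402, chromosome 9, 63646767 to 63757994), a transducer of TGF-β and activin signals that binds DNA directly, had 18.8, 20.02 and 19.9 CPM in the B220+ libraries and 46.9, 33.3 and 43.3 CPM in the B220− libraries (log2 fold change −1.07 with SE 0.12, adjusted p = 1.09e-04 by edgeR). It was 2.09-fold lower in B220+ cells, whose libraries lay close together, while B220− replicate 2 was the lowest of its group. The adjusted p stayed at or under 0.00203 in the 6 fits without 1 library. Smad2, which shares its upstream receptors, had 52.6, 56.9 and 55.0 CPM in the B220+ libraries and 60.1, 54.2 and 53.5 CPM in the B220− libraries (log2 fold change −0.028, SE 0.0750, adjusted p = 0.881 by edgeR). Smad4, the partner common to both branches, had 51.2, 61.8 and 58.8 CPM in the B220+ libraries and 62.7, 55.2 and 57.6 CPM in the B220− libraries (adjusted p = 0.904 by edgeR). Both Smad2 and Smad4 had overlapping ranges.

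In the BMP branch, Smad5 was the most abundant transducer and Smad9 had nearly no reads. Smad5 had 36.0, 32.5 and 32.5 CPM in the B220+ libraries and 27.1, 30.8 and 33.6 CPM in the B220− libraries (adjusted p = 0.438 by edgeR). Smad1 had 11.1, 12.9 and 15.8 CPM in the B220+ libraries and 12.1, 11.1 and 12.3 CPM in the B220− libraries (adjusted p = 0.563 by edgeR). Both pairs of ranges overlapped. Smad9 had 1 count, in a B220− library. The inhibitory SMADs were at opposite ends of the scale: Smad6, which acts mainly on BMP receptors, had 1 count in all B220+ libraries together, against 2 in all B220− libraries, and Smad7, which blocks TGF-β receptors, was among the most abundant members. Smad7 had 215, 213 and 235 CPM in the B220+ libraries and 243, 234 and 270.1 CPM in the B220− libraries (log2 fold change −0.17 with SE 0.0738, adjusted p = 0.188 by edgeR, or 0.0443 in the blocked fit). The highest B220+ library was just above the lowest B220− library.

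Of the 6 ubiquitin ligases and corepressors, Ski was called, and lower. Smurf2, a ligase that marks receptors and SMADs for degradation, had 133, 159.6 and 153 CPM in the B220+ libraries and 175, 168 and 168 CPM in the B220− libraries (log2 fold change −0.19 with SE 0.0755, adjusted p = 0.140 by edgeR, or 0.0438 in the blocked fit). Smurf1 had 52.3, 51.0 and 47.2 CPM in the B220+ libraries and 48.0, 53.5 and 56.4 CPM in the B220− libraries (adjusted p = 0.709 by edgeR). The B220+ libraries were all below the B220− libraries for Smurf2, and the ranges of Smurf1 overlapped.

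Ski (ENSMUSG00000029050, chromosome 4, 155154075 to 155222592), a corepressor that binds SMAD complexes, had 131, 116 and 107 CPM in the B220+ libraries and 153, 132 and 152 CPM in the B220− libraries (log2 fold change −0.31 with SE 0.0871, adjusted p = 0.0392 by edgeR). It was 1.24-fold lower, and the call was lost without B220+ replicate 2 (adjusted p = 0.146), B220+ replicate 3 (0.170), B220− replicate 1 (0.0960) or B220− replicate 3 (0.158). Its relative Skil (SnoN), itself a target of TGF-β, had 280.5, 259 and 279.5 CPM in the B220+ libraries and 289, 243 and 278 CPM in the B220− libraries (adjusted p = 0.943 by edgeR). The ranges of Skil overlapped, as did those of both TGIF homeobox repressors. Tgif1 had 93.8, 81.2 and 92.5 CPM in the B220+ libraries and 96.0, 77.9 and 91.9 CPM in the B220− libraries (adjusted p = 0.977 by edgeR). Tgif2 had 26.0, 34.1 and 35.0 CPM in the B220+ libraries and 31.3, 29.8 and 38.5 CPM in the B220− libraries (adjusted p = 0.876 by edgeR), and 56.7% of its exonic bases overlap a gene on the opposite strand, 5430405H02Rik, with nearly as many counts. Id1, a target of BMP signals, had 29 counts in all B220+ libraries together, against 34 in all B220− libraries, and was not tested.

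**Figure D3:**
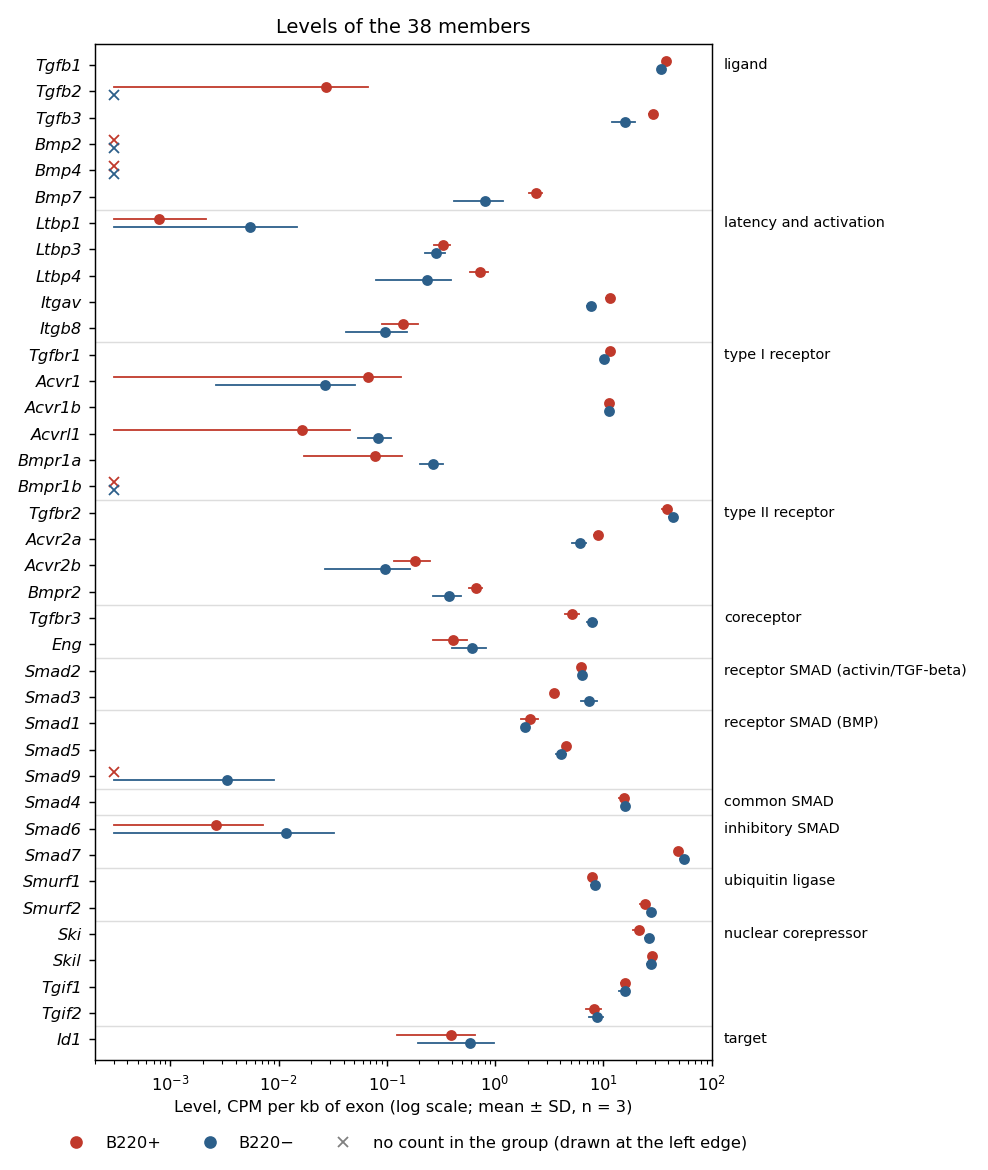
Levels of the 38 members as CPM per kb of exon (log axis), with B220+ above B220− in each row, points for the mean and lines for the SD over 3 libraries (cut at the left edge where they reach 0). Crosses at the left edge mark groups with no count, and the highest level is that of Smad7 in B220− cells (55.1 CPM per kb).

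Levels of different genes were compared per kb of exon. The most abundant member was Smad7, at 48.9 ± 2.63 CPM per kb in B220+ and 55.1 ± 4.15 in B220− cells (mean ± SD, n = 3 each). Next in B220+ cells were Tgfbr2 (38.4 ± 3.60 CPM per kb) and Tgfb1 (37.6 ± 2.16), which lay within their spread of each other. Tgfb3 followed at 28.8 ± 2.08 CPM per kb in B220+ cells, level with Skil (28.2 ± 1.26). In B220− cells Tgfb3 stood at 15.8 ± 3.90 CPM per kb, level with Smad4 (15.8 ± 1.03) and Tgif1 (15.8 ± 1.70). Among receptors, Tgfbr2 was above every other in both groups, and Tgfbr1 (11.6 ± 0.927 CPM per kb in B220+ and 10.1 ± 0.430 in B220−) was level with Acvr1b (11.2 ± 0.436 and 11.3 ± 0.596). The BMP receptor Bmpr2 was far lower, at 0.666 ± 0.0943 CPM per kb in B220+ and 0.376 ± 0.108 in B220− cells. Smad3 was below Smad2 in B220+ cells (3.54 ± 0.120 and 6.24 ± 0.243 CPM per kb), whereas in B220− cells the 2 genes lay within their spread (7.43 ± 1.27 and 6.37 ± 0.413).

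**Figure D4:**
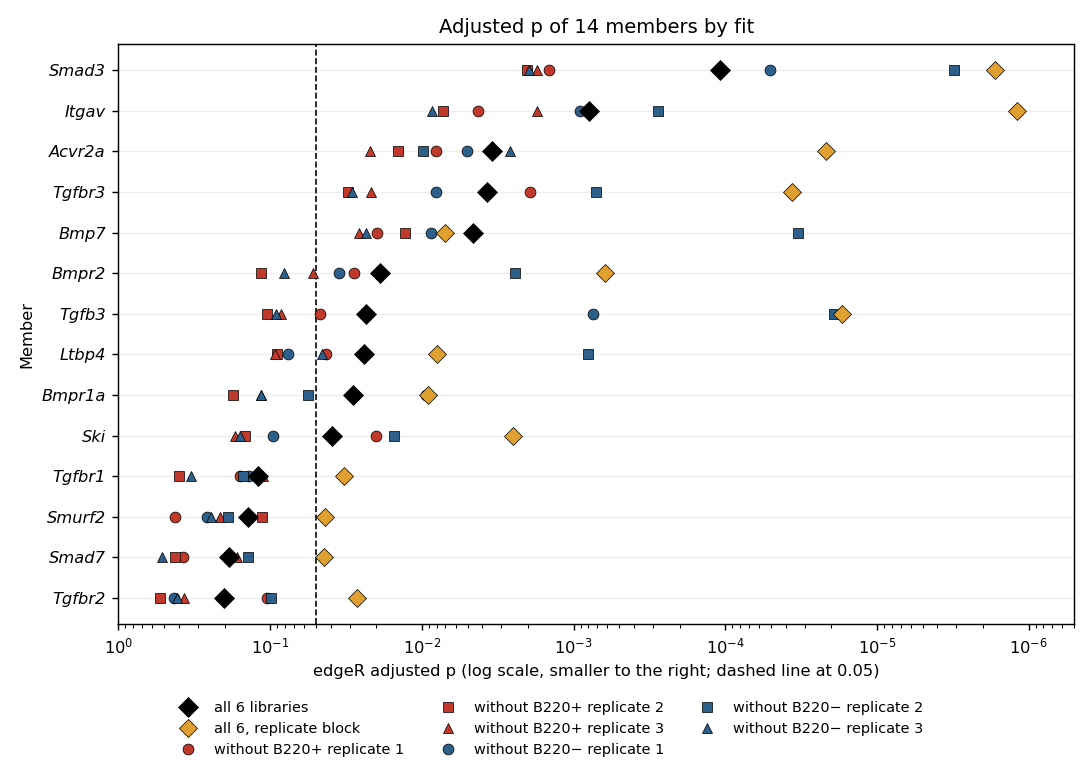
edgeR adjusted p (log axis, smaller to the right, dashed line at 0.05) of the 14 members called with all 6 libraries or with the replicate block, with black and yellow diamonds for these fits and red and blue symbols for fits without 1 B220+ or 1 B220− library. Smad3, Itgav, Acvr2a, Tgfbr3 and Bmp7 lie to the right of the line in every fit shown.

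Of the 10 calls, 5 did not depend on a single library. Smad3, Itgav, Acvr2a, Tgfbr3 and Bmp7 kept the call in all 6 fits that left out 1 library, which are 5 of the 10 called members. Of the 1639 genes called in the whole table, 799 (48.8%, or 5.43% of all genes tested) did so. In a fit blocked by replicate number, 14 members were called (7 higher and 7 lower), against 17.5% of all genes tested, 8.85% higher and 8.60% lower. These 14 included all 10 named above.

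Other genes of the pathway, from lists written down with earlier results of these data known, are given by their counts and, for named genes, by the mean ± SD (n = 3 libraries each). Among 10 tested carriers and activators of latent TGF-β, 1 was called higher and 3 lower (2 and 5 with the replicate block), where 11.1% of all genes tested were called (17.5% with the block). The median log2 fold change of these genes was −0.26. Lrrc32 (GARP), which displays latent TGF-β on regulatory T cells, had 0 counts in all B220+ libraries together, against 71 in all B220− libraries, at least 32.4-fold lower in B220+ cells with the floor of 3 counts taken over the group (adjusted p = 6.19e-04 by edgeR). The matrix metalloprotease gene Mmp9 had 2 counts in B220+ libraries, both in replicate 2, against 69 in B220− libraries, a depth-corrected B220− over B220+ ratio of 47.3 (95% counting interval 12.6 to 398, adjusted p = 2.38e-04 by edgeR). Mmp14 was 2.24-fold lower (2.20 ± 0.905 CPM in B220+, against 4.67 ± 0.740 CPM in B220− libraries, adjusted p = 0.0274 by edgeR), and the call was lost without B220+ replicate 2 (adjusted p = 0.135), B220+ replicate 3 (0.0836), B220− replicate 1 (0.0775) or B220− replicate 3 (0.0849). Emilin1, a matrix protein that limits the processing of pro-TGF-β, was 1.59-fold higher (21.8 ± 2.80 CPM in B220+, against 13.7 ± 2.20 CPM in B220− libraries, adjusted p = 0.00679 by edgeR), a call lost without B220+ replicate 2 (adjusted p = 0.0556). Furin, the protease that cleaves pro-TGF-β, had 576 ± 6.37 CPM in B220+, against 619 ± 18.4 CPM in B220− libraries (adjusted p = 0.395 by edgeR), and the integrin chain Itgb1 had 44.4 to 45.9 CPM in B220+, against 37.6 to 48.2 CPM in B220− libraries (adjusted p = 0.805 by edgeR).

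Among 4 tested ligands outside the members, 0 were called higher and 1 lower, where 11.1% of all genes tested were called, and the median log2 fold change was −0.27. This was Gdf11, at 40.4 ± 2.82 CPM in B220+, against 49.3 ± 3.75 CPM in B220− libraries (adjusted p = 0.0427 by edgeR), no longer called without B220+ replicate 1 (adjusted p = 0.0697), B220+ replicate 2 (0.106), B220+ replicate 3 (0.183), B220− replicate 1 (0.128) or B220− replicate 2 (0.0941). Of 3 other receptors and coreceptors and of 3 secreted antagonists, 0 were called by edgeR, and the median log2 fold changes were −0.084 and 0.018. The pseudoreceptor Bambi had 10.4 ± 1.10 CPM in B220+, against 8.21 ± 1.40 CPM in B220− libraries (adjusted p = 0.227 by edgeR), and Nrp1 had 13 counts in all B220+ libraries together, against 26 in all B220− libraries.

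Of 32 tested intracellular regulators of receptors and SMADs, 2 were called higher and 0 lower (4 and 2 with the replicate block), against 11.1% of all genes tested in either direction, and the median log2 fold change was 0.0027. The 2 were the ubiquitin ligases Nedd4l (35.1 ± 3.74 CPM in B220+, against 19.0 ± 5.38 CPM in B220− libraries, adjusted p = 0.0256 by edgeR) and Wwp2 (187 ± 3.82 CPM in B220+, against 156 ± 9.59 CPM in B220− libraries, adjusted p = 0.0249 by edgeR). The Nedd4l call was lost without B220+ replicate 2 (adjusted p = 0.102), B220+ replicate 3 (0.0928) or B220− replicate 3 (0.112). The Wwp2 call was lost without B220+ replicate 1 (adjusted p = 0.0826), B220+ replicate 2 (0.0699), B220+ replicate 3 (0.0571) or B220− replicate 3 (0.124). Among 18 tested nuclear partners of SMADs, 0 were called higher and 3 lower, where 5.58% of all genes tested were higher and 5.56% lower. Their median log2 fold change was −0.12. Runx1 had 60.5 ± 4.09 CPM in B220+, against 90.5 ± 7.64 CPM in B220− libraries (adjusted p = 5.52e-04 by edgeR), and the SMAD-binding repressor Zeb2 had 13.2 ± 1.018 CPM in B220+, against 22.6 ± 1.85 CPM in B220− libraries (adjusted p = 6.92e-04 by edgeR). Runx2 was 1.25-fold lower (123 ± 11.7 CPM in B220+, against 154 ± 16.8 CPM in B220− libraries, adjusted p = 0.0387 by edgeR), a call lost without B220+ replicate 2 (adjusted p = 0.172), B220+ replicate 3 (0.156), B220− replicate 1 (0.109) or B220− replicate 3 (0.130). Runx3, which TGF-β signalling engages in CD8 T cells, had 361 ± 20.4 CPM in B220+, against 351 ± 30.9 CPM in B220− libraries (adjusted p = 0.836 by edgeR).

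Genes that SMADs are known to induce or repress were called in both directions. Of 18 tested, 2 were called higher and 4 lower (3 and 6 with the replicate block), where 11.1% of all genes tested were called (17.5% with the block), and the median log2 fold change was −0.097. Gadd45b, a stress and TGF-β response gene, had 151, 159.9 and 158 CPM in the B220+ libraries and 339, 337 and 338 CPM in the B220− libraries (log2 fold change −1.11 with SE 0.0624, adjusted p = 4.18e-07 by edgeR). Its libraries differed little within a group. Hey1, a target of Notch and BMP signals, had 1.69 ± 0.314 CPM in B220+, against 4.00 ± 0.411 CPM in B220− libraries (adjusted p = 0.00688 by edgeR), and the cell cycle inhibitor Cdkn1a had 20.7 ± 5.22 CPM in B220+, against 34.6 ± 2.16 CPM in B220− libraries (adjusted p = 0.0197 by edgeR), a call lost without B220− replicate 2 (adjusted p = 0.0566) or B220− replicate 3 (0.0878). Tsc22d1, a TGF-β-stimulated gene, was 2.40-fold higher (29.7 ± 4.50 CPM in B220+, against 12.4 ± 4.26 CPM in B220− libraries, adjusted p = 0.0172 by edgeR), a call lost without B220+ replicate 2 (adjusted p = 0.0530), B220+ replicate 3 (0.0622) or B220− replicate 3 (0.0797). Pmepa1, a direct TGF-β target that feeds back on SMADs, had 83.6 ± 11.4 CPM in B220+, against 80.4 ± 14.4 CPM in B220− libraries (adjusted p = 0.897 by edgeR). The BMP and TGF-β targets Id2 (383 ± 27.3 CPM in B220+, against 358 ± 8.76 CPM in B220− libraries, adjusted p = 0.483 by edgeR) and Id3 (27.6 ± 8.31 CPM in B220+, against 19.7 ± 3.99 CPM in B220− libraries, adjusted p = 0.343 by edgeR, or 0.0255 in the blocked fit) were not called.

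Of 23 tested T cell genes known to respond to TGF-β, 3 were called higher and 11 lower (5 and 11 with the replicate block), where 5.58% of all genes tested were higher and 5.56% lower (8.85% and 8.60% with the block). Their median log2 fold change was −0.31. These genes answer to many other signals, and the list holds genes that TGF-β raises and genes that it lowers. Itgae, the integrin chain that TGF-β induces, had 2633 ± 141 CPM in B220+, against 2567 ± 103 CPM in B220− libraries (adjusted p = 0.854 by edgeR). Ifng, the interferon-γ gene, which TGF-β represses, was 2.50-fold lower in B220+ cells (36.0 ± 3.92 CPM in B220+, against 90.2 ± 7.04 CPM in B220− libraries, adjusted p = 3.21e-06 by edgeR). Cd8a, given above among the markers of the labelled cell type, was among those called higher, and the remaining called genes are not named here. The called genes were not sorted by whether TGF-β raises or lowers them, so the counts give no direction of TGF-β action.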

How the data were processed

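Total RNA of 6 sorted samples (3 B220+ and 3 B220−) was sequenced after preparation with a directional library kit, per the labels' protocols. The deposited values are raw read counts per gene, and the submitters' processing notes name FastQC 0.11.7, Trimmomatic 0.38, HISAT2 2.1.0, SAMtools 1.9, featureCounts 1.6.3 and mm10. The settings of these tools, the use of strand and the annotation are not given in the sources at hand. Without strand, reads over the bases that overlapping genes share cannot be told apart. Of the deposited gene models 98.73% have the coordinates of GENCODE release M21 (all 38 members do), from which exonic lengths were taken, and positions are 1-based as deposited.

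Counts were tested with edgeR 4.0.16 in R 4.3.3 (TMM scaling, filterByExpr with minimum count 10 and minimum total 15, robust quasi-likelihood F test, group only, Benjamini-Hochberg adjustment over 14722 genes, calls at 0.05). The procedure was tested on simulated counts drawn independently for each library. These lack the relation between equal replicate numbers described below, so that test does not bear on the calls made here. CPM use the TMM-scaled library sizes. Library totals of 11320363 to 39591312 counts set the floor of 3 counts at 0.0758 to 0.265 CPM. No library repeats another: counts of libraries within a group gave a chi-square of 7.37 to 16.2 per degree of freedom. The replicate numbers of the titles were taken to pair libraries in the blocked fit only, and the main test did not use them. Deviations from the group means correlated at 0.295, 0.246 and 0.272 for equal numbers. For unequal numbers the values were −0.203 to −0.0675, which add no separate support because deviations within a group cancel. The relation between equal numbers was found in the data and is not stated in the labels. Alternatives were DESeq2 1.42.0, limma-voom 3.58.1, RLE and upper quartile scaling, no filter, the block, a fold threshold of 1.5 and leaving out each library.

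The members and lists were chosen with earlier results of these data known. Members called, or with a mean of at least 10 CPM in a group, are given by library. Of the other lists at most the 4 called genes of smallest adjusted p and 10 preselected genes are named, besides Itgb5 and Cd8a. SciPy 1.17.1 gave exact tests.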

Additional observations from a re-analysis of the deposited data

How the results depend on the processing

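The counts of members called, 6 higher and 4 lower, were the same with RLE scaling, upper quartile scaling, no filter on low counts, limma-voom and DESeq2. With the replicate block 7 were lower. Against a fold change of 1.5 (glmTreat) the counts were 1 higher (Bmp7) and 1 lower (Smad3). In the fits that left out 1 library between 3 and 6 members were called higher and between 2 and 4 lower, with 3 higher and 2 lower without B220+ replicate 2 or B220+ replicate 3, and 4 higher and 2 lower without B220− replicate 3. Over all genes the count was 2569 with the replicate block, 337 against a fold change of 1.5, and 970 (without B220+ replicate 2) to 1789 with 1 library left out, with 1029 without B220− replicate 3. For the other pathway lists it was 30, or 10 against a fold change of 1.5, and 20 to 31 with 1 library left out. The replicate block changed the call of Tgfbr1, Tgfbr2, Smad7 and Smurf2 among the members and of no other tested member. No tested member reversed its direction with a call in any alternative, and the cause of the lost calls was not tested. Depth limits Bmp2, Bmp4, Bmpr1b, Smad6, Smad9, Ltbp1, Tgfb2, Acvr1, Acvrl1 and Id1, which were not tested for lack of counts.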

Other observations

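Ratios of 2 members within a library do not depend on the scaling between libraries. Smad3 as a percentage of Smad2 (CPM per kb) was 56.7%, 55.8% and 57.4% in the B220+ libraries, against 124%, 97.3% and 128% in the B220− libraries. Tgfb3 was 70.5%, 84.9% and 74.4% of Tgfb1 in the B220+ libraries, against 37.4%, 58.4% and 41.9% in the B220− libraries. Tgfbr3 was 14.3%, 14.2% and 12.1% of Tgfbr2 in the B220+ libraries, against 18.3%, 17.3% and 18.2% in the B220− libraries. None of the 3 pairs of ranges overlapped, and each gave a two-sided exact permutation p of 0.10 (0.10 after Benjamini-Hochberg adjustment over the 3), the smallest that 3 against 3 libraries allow. The ratios were chosen after their values were seen and rest on the same counts as the fold changes of these genes.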
